A study of Mus musculus with 6 samples.

Results

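The 8 genes described here encode components and regulators of the complement system: C1ra, C1s1, C4b, C2, C3, Cfb, Serping1 and Cd55. They were taken by gene symbol from tables of 55487 gene rows, all 8 were found, and all 8 passed the filter on low counts. The libraries came from mammary tumours of MMTV-PyMT mice, in which the mouse mammary tumour virus promoter drives the polyoma virus middle T antigen in mammary epithelium. There were 3 libraries from mice that took DMHCA, a steroidal agonist of the liver X receptors (LXR), by mouth in Medigel cups without interruption from 6 weeks of age, and 3 from mice labelled vehicle with the same route and starting age. All 6 tumours carry the transgene, and the sources used here give no strain, sex or age at collection. The sample titles carry 1 code for the whole agonist group and another for the whole vehicle group, while the deposited tables are named with a code for each library. Nothing in the labels states what the codes mean or that each tumour of a group is from its own mouse, and p-values therefore cover only the variation among these libraries, part of which may be technical. The question was how LXR activation bears on tumour progression, and each gene was compared between the agonist and the vehicle libraries.

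Complement is a cascade of plasma and membrane proteins. In the classical pathway C1q binds a target and activates the proteases C1r and C1s, which cleave C4 and C2 into a convertase that cleaves C3. In the alternative pathway factor B, encoded by Cfb, joins deposited C3b to form another C3 convertase. C1 inhibitor, encoded by Serping1, blocks C1r and C1s, and CD55, or decay-accelerating factor, dismantles both convertases on host cells. The liver makes most plasma complement, while fibroblasts, macrophages and epithelial cells make several components locally.

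No difference between the groups was called for any of the 8 genes, and the 95% intervals were wide, reaching from -2.09 to 2.21 on the log2 scale for C1s1. At an adjusted p under 0.05 by edgeR's quasi-likelihood test, 0 of 8 were called, against 0% of the 17396 genes tested, and DESeq2 and limma-voom also called 0 of 8, against 0.0391% of 20451 genes by DESeq2. At an unadjusted p under 0.05 by edgeR the count was likewise 0 of 8, against 3.09% of all genes (0.719% higher and 2.37% lower). The groups overlapped for all 8, while 7.24% of all genes tested had groups that did not overlap (3.02% higher and 4.22% lower). Overlaps and ranges were read in CPM, read counts scaled by the adjusted library total. For 8 of 8 genes every agonist library lay between the lowest and the highest vehicle library, which held for 29.5% of all genes. The reverse, every vehicle library within the agonist range, held for 0 of 8 and for 14.1% of all genes. The log2 fold changes of agonist over vehicle were positive for 5 and negative for 3 of the 8 (49.3% of all genes were positive), with a median of 0.06 against -0.0049 over all genes. All 8 were positive by limma-voom and by limma-trend on TPM (a level corrected for transcript length), and 2 were positive without agonist replicate 1. Limma-voom, which weights libraries by quality, put C2, C4b, C1s1 and Serping1 at log2 differences of 1.10 to 1.202, with an adjusted p of 0.634 each. In CPM vehicle replicate 2 was the highest library for every gene but Cd55, so leaving it out raises their fold changes by construction. In TPM agonist replicate 1 was the highest library for C2 (4.79, against 3.63 in vehicle replicate 2). For C4b it was agonist replicate 3 (131.63 TPM, against 101.16 in vehicle replicate 2). The count of 8 of 8 within the vehicle range therefore holds in CPM only. Without vehicle replicate 2 all 8 were positive and 0 of 8 were called. By edgeR 1188 of 17963 genes were then higher at an unadjusted p under 0.05, and 13.6% passed it in either direction. Of the 8, 4 passed it: C2, C4b, C1s1 and Serping1. Without vehicle libraries 2 and 3 together, an alternative chosen after seeing the data, the same 4 did, against 14.1% of all genes, and 0 of 8 were called against 0.0106% of all genes.

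**Figure D1:**
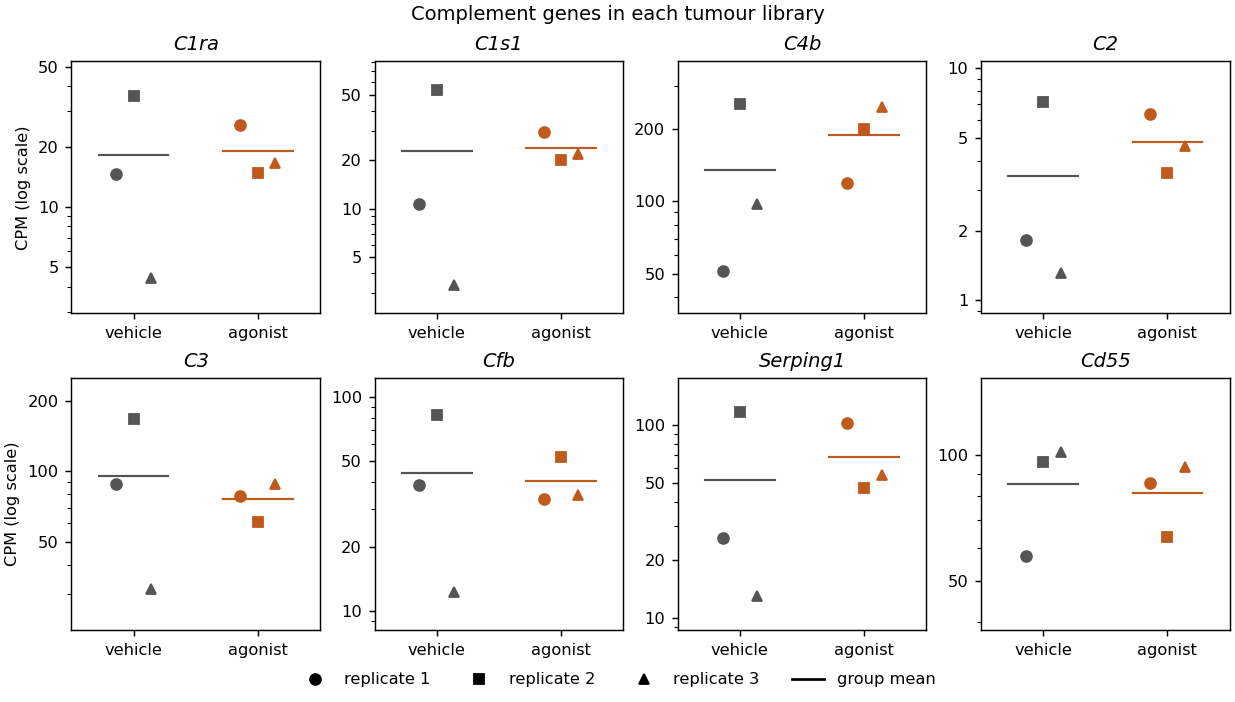
Normalised counts (CPM, read counts scaled by the adjusted library total, log axis) of the 8 complement genes in each library, by group, with the marker shape giving the replicate and the line the group mean. Vehicle replicate 2 was the highest library for every gene but Cd55, and vehicle replicate 3 the lowest for every gene but C4b and Cd55.

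C1ra and C1s1 encode the proteases C1r and C1s of the C1 complex and lie on chromosome 6 of GRCm38, at 124512405 to 124523443 on the plus strand and 124530345 to 124542359 on the minus strand. C1ra had 14.6, 35.6 and 4.40 CPM in vehicle replicates 1, 2 and 3 and 25.5, 14.8 and 16.5 CPM in the agonist replicates. C1s1 had 10.6, 54.1 and 3.38 CPM with vehicle and 29.6, 19.8 and 21.7 with agonist. For each gene vehicle replicate 2 was the highest of the 6 libraries and vehicle replicate 3 the lowest, and the agonist libraries stood between them. C1s1 had the widest spread of the 8 genes, 16.0-fold from lowest to highest, wider than 99.2% of the 13096 genes with a mean log2 CPM of at least 1. C1ra spread 8.10-fold. By edgeR the log2 fold change was 0.056 ± 0.69 for C1ra (SE; 95% interval -1.59 to 1.70) and 0.064 ± 0.89 for C1s1 (-2.09 to 2.21). Adjusted p by edgeR lay between 0.990 and 0.996 over the 8 genes. Without vehicle replicate 2 the log2 fold changes of C1ra and C1s1 became 0.98 and 1.75, and without vehicle replicate 3 they became -0.40 and -0.43.

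The promoters of C1ra and C1s1 are shown because their products work in 1 complex. Sequences are from RefSeq on GRCm38.p6, 250 bases before to 50 after the start site, and capitals mark exact matches on either strand to 1 of 5 motifs. These were TTGCNNAA (a C/EBP core), TTCNNNGAA (a STAT, or GAS, core), GAAA repeated after 2 bases of any kind (an interferon-stimulated response element core), GGGA and TTTCC with 1 base of any kind between them (an NF-kB core), and AGGTCA repeated after 4 bases of any kind (an LXR direct repeat). No match overlapped another. C1ra is chr6:124512371-124512670 on the plus strand, and the upstream C1s1 start is chr6:124542310-124542609 on the minus strand:
C1ra: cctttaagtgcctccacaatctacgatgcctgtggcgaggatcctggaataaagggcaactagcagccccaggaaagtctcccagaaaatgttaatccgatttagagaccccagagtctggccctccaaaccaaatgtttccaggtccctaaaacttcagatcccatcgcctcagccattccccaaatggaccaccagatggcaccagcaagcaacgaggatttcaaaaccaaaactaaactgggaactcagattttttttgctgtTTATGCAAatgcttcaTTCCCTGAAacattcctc
C1s1: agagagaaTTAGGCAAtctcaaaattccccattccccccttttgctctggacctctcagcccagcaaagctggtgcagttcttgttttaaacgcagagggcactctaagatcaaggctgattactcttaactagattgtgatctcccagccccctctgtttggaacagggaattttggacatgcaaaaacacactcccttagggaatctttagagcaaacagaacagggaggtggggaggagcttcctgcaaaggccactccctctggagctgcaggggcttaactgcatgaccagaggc
Each held 1 match to the C/EBP core, at bases 267 to 274 of the C1ra stretch and bases 9 to 16 of the C1s1 stretch, and C1ra also held 1 GAS core at bases 283 to 291. The table holds another C1s1 start, with the window chr6:124542272-124542571, and that stretch held none of the 5 motifs. Of the 32851 promoters of this length in the table, 10.8% held the C/EBP core, 8.30% the GAS core, 3.44% the interferon element core, 0.411% the NF-kB core and 0.0152% the LXR repeat. A match is a description of the letters and does not show that a factor binds.

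Each of C1ra and C1s1 has a near-identical copy on chromosome 6, C1rb and C1s2, and RSEM shared reads between them. In the annotated transcripts 40.1% of the 75-base windows of C1ra also occur in C1rb, and 14.7% of those of C1s1 in C1s2. C1ra took between 90.0% and 96.7% of the expected counts of its pair and C1s1 between 79.4% and 94.4% of its pair, so the split is uncertain and the sum is firmer. With each pair summed, the log2 fold changes were 0.10 and 0.067. The other C1 genes were C1qa, C1qb and C1qc, the C1q chains that tissue macrophages make, and C1rl, a C1r-like protease. C1qa averaged 94.7 ± 4.6 CPM in agonist and 92.1 ± 64.8 in vehicle libraries (SD, n = 3), C1qb had 83.4 ± 4.95 against 76.4 ± 51.0, and C1qc had 91.3 ± 9.06 against 89.7 ± 54.6. The vehicle values of C1qa were 78.3, 163 and 35.3 CPM, again highest in replicate 2 and lowest in replicate 3. C1rl had the reverse order, with 10.8, 4.63 and 14.4 CPM in vehicle replicates 1, 2 and 3 and 9.19, 6.96 and 3.29 in the agonist replicates.

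C4b encodes C4, the substrate of C1s, and lies on chromosome 17 (34728380 to 34743882, minus strand) in the class III region of the MHC. It had 51.4, 254 and 97.2 CPM in vehicle replicates 1, 2 and 3 and 119, 199 and 246 CPM in the agonist replicates. Vehicle replicate 2 was again the highest library, but the lowest was vehicle replicate 1, unlike for the C1 genes. Agonist libraries averaged 188 ± 64.6 CPM and vehicle libraries 134 ± 106 (SD, n = 3), and the log2 difference was 0.49 ± 0.59 (SE, 95% interval -0.94 to 1.91). It ran from 0.097 without vehicle replicate 1 to 1.34 without vehicle replicate 2. Of the windows of C4b, 23.5% also occur in its copy C4a, whose annotated biotype on this build is processed transcript, and C4b took between 95.4% and 99.5% of the counts of the pair. C4a itself ranged from 1.38 CPM in vehicle replicate 2 to 2.74 in vehicle replicate 3, so the copy did not follow C4b. Its log2 fold change was -0.26 ± 0.39, and it turned to 0.0497 and 0.10 by limma-trend on TPM.

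C2 encodes the protease that joins C4b in the classical convertase, and it lies on chromosome 17 (34862604 to 34898265, minus strand) beside Cfb. It had 1.82, 7.16 and 1.32 CPM in vehicle replicates 1, 2 and 3 and 6.34, 3.54 and 4.63 CPM in the agonist replicates. All 3 agonist libraries exceeded vehicle replicates 1 and 3, while vehicle replicate 2 exceeded them all. The log2 fold change was 0.50 ± 0.65 (SE; 95% interval -1.01 to 1.997), the largest of the 8 in this fit, with 0.12 without vehicle replicate 3 and 1.61 without vehicle replicate 2. C2 rests on between 53 and 269 expected counts a library, the thinnest support of the 8 genes. Gm20547, annotated across C2 and Cfb on the same strand, is listed at 0 in all 6 libraries. Zbtb12, annotated on the opposite strand across part of C2, had between 454 and 670 expected counts, and without a stated strand setting reads in that overlap cannot be told apart.

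C3, the component on which all activation pathways meet, lies on chromosome 17 (57203970 to 57228136, minus strand). It had 88.4, 167 and 31.7 CPM in vehicle replicates 1, 2 and 3 and 78.3, 61.1 and 88.7 CPM in the agonist replicates. Vehicle replicate 1 stood among the agonist libraries, with the other vehicle libraries above and below them. Agonist libraries averaged 76.0 ± 13.9 CPM and vehicle libraries 95.6 ± 67.8 (SD, n = 3), and the log2 difference was -0.33 ± 0.55 (SE; 95% interval -1.64 to 0.98). The direction of C3 turned without vehicle replicate 2 (0.33) and by limma-voom (0.18), and without vehicle replicate 3 it was -0.74, with an unadjusted p of 0.0362 by edgeR (adjusted p = 0.99), where 3.23% of all genes passed an unadjusted p of 0.05.

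The C3 promoter, chr17:57228087-57228386 on the minus strand, is shown with the same marking. Its single match, the C/EBP core at bases 206 to 213, ends 38 bases before the start site:
C3: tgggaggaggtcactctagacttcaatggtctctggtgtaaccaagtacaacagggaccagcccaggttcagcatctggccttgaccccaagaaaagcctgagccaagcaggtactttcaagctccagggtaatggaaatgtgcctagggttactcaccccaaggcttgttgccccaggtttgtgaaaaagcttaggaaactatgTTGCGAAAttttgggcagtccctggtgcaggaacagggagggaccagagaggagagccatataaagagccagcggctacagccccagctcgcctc

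Cfb encodes factor B, the protease of the alternative C3 convertase, and lies on chromosome 17 (34856374 to 34862518, minus strand). It had 38.7, 81.9 and 12.2 CPM in vehicle replicates 1, 2 and 3 and 33.4, 52.4 and 35.0 CPM in the agonist replicates. The order of the vehicle libraries was that of C3, and the spread was 6.71-fold. The log2 fold change was -0.14 ± 0.62 (SE; 95% interval -1.63 to 1.356), and it turned to 0.65 without vehicle replicate 2, to 0.20 with the replicate number as a block and to 0.43 by limma-trend on log2(TPM + 1). Of the other genes of that pathway, Cfd encodes factor D, the adipocyte-made protease that cleaves factor B, and Cfp encodes properdin, which stabilises the convertase. Cfd spread 38.5-fold, with 55.5, 323 and 8.40 CPM in vehicle replicates 1, 2 and 3 and 178, 99.7 and 25.4 CPM in the agonist replicates. Its low values fell in vehicle replicate 3 and agonist replicate 3. Cfp averaged 20.9 ± 4.56 CPM in agonist libraries against 20.0 ± 14.96 in vehicle libraries (SD, n = 3).

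Serping1, which encodes C1 inhibitor, lies on chromosome 2 (84765387 to 84775444, minus strand). It had 25.8, 117 and 12.9 CPM in vehicle replicates 1, 2 and 3 and 102, 47.3 and 55.1 CPM in the agonist replicates. Its order over the 6 libraries was the same as that of C1s1, C1ra and C2, with agonist replicate 1 next below vehicle replicate 2. The log2 fold change was 0.39 ± 0.80 (SE; 95% interval -1.53 to 2.31), from -0.054 without vehicle replicate 3 to 1.81 without vehicle replicate 2.

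Cd55, which encodes CD55, lies on chromosome 1 (130439027 to 130462744, minus strand). It had 57.4, 96.4 and 102 CPM in vehicle replicates 1, 2 and 3 and 85.6, 63.9 and 93.9 CPM in the agonist replicates. Vehicle replicate 3, the lowest library for 6 of the other genes, was the highest for Cd55. The spread was 1.78-fold, wider than 61.0% of genes, where the other 7 were wider than 93.6% to 99.2%. The log2 fold change was -0.071 ± 0.25 (SE; 95% interval -0.65 to 0.51), the narrowest interval of the 8, and its sign turned in 7 of the alternative settings. Its copy Cd55b had at most 4.02 expected counts in a library, close to the floor of 3 counts. The Cd55 promoter, chr1:130462695-130462994 on the minus strand, held none of the 5 motifs and is shown beside those above for that contrast, which says only that these letters are not in this window:
Cd55: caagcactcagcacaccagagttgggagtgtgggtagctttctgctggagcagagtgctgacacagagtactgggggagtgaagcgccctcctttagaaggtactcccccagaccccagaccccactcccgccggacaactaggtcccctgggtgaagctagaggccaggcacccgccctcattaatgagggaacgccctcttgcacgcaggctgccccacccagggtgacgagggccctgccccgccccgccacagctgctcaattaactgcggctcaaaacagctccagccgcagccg

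**Figure D2:**
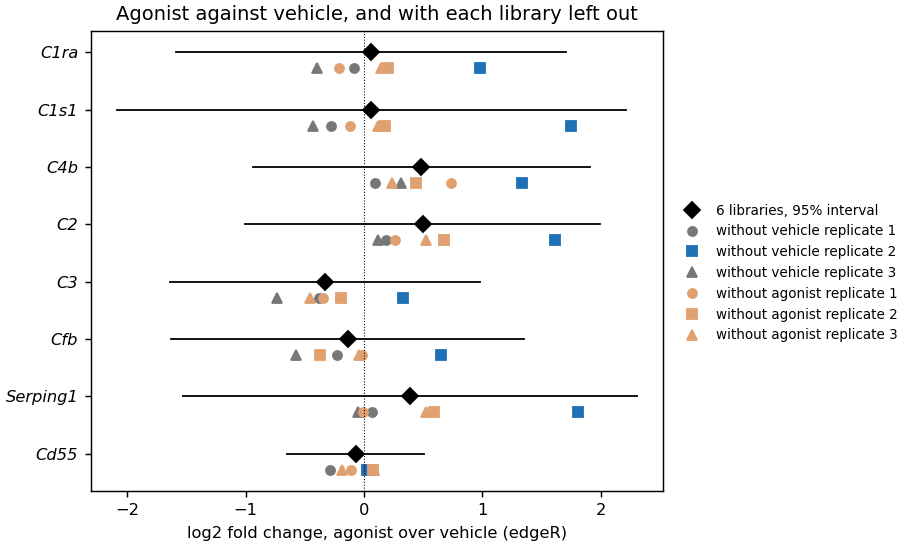
Log2 fold change of agonist over vehicle by edgeR for each gene (diamond, with its 95% interval) and, just under it, the value with each library left out. All 8 intervals cover 0, and leaving out vehicle replicate 2 moved 7 of the 8 genes farthest to the right.

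Levels between genes were compared in TPM, averaged over the 6 libraries. C4b was highest at 81.5 TPM, followed by Cd55 (47.6), Serping1 (42.4), C3 (33.8), Cfb (30.2), C1s1 (9.12), C1ra (7.07) and C2 (2.76). Neighbours in this order had ranges that overlapped, for example 32.8 to 132 TPM for C4b and 35.8 to 59.7 TPM for Cd55. Within libraries C2 was the lowest of the 8 in all 6, and C4b the highest in 4, while C3 led in vehicle replicate 1 and Cd55 in vehicle replicate 3. The mean transcript length that RSEM used varied between libraries for C4b (1782 to 2711 bases) and C3 (2653 to 3213 bases). It also varied for C2 (1536 to 2070 bases) and Cfb (1529 to 1998 bases). The TPM of these genes, and ratios that hold them, therefore also carry the assignment of reads to isoforms.

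Ratios within a library do not depend on scaling between libraries. The log2 ratio of C1ra to C1s1 in TPM ran from -0.67 in vehicle replicate 2 to 0.41 in vehicle replicate 1, a range of 1.09, and that of C3 to Cfb had a range of 1.09 as well. The log2 ratio of C3 to Cd55 ranged over 2.75, from -2.36 in vehicle replicate 3 to 0.39 in vehicle replicate 2. C4b to C3 ranged over 2.27, with agonist values of 1.49, 1.67 and 1.99 and vehicle values of -0.18, 0.69 and 2.09. For C1ra to C1s1, C4b to C3 and C3 to Cd55 the agonist values lay between the lowest and the highest vehicle value. C3 to Cfb had agonist values of 0.072, -0.55 and 0.29 and vehicle values of 0.22, 0.53 and 0.39. Its SD was 0.44 over the agonist and 0.16 over the vehicle libraries. C2 to Cfb had agonist values of -2.53, -4.17 and -3.09, with an SD of 0.83 against 0.78 with vehicle.

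The likeness of profiles was measured as the root mean square difference, over the 6 libraries, between 2 genes' log2 CPM after centring each gene on its mean. Among the 8, C2 and Serping1 were closest at 0.27, then C1s1 and Serping1 at 0.30 and C1ra and Serping1 at 0.37. C1ra and C1s1 stood 0.40 apart, while C1s1 and Cd55 were farthest apart at 1.28. Over all tested genes with a mean log2 CPM of at least 3, the 3 nearest to each of the 8 were then found. For C1s1 they were Cpxm1 (0.088), Islr (0.11) and Fn1, which encodes fibronectin (0.13). Nearest to C1ra were Ecm1 (0.12), Nbl1 (0.15) and Mfap4 (0.16), nearest to Serping1 were Fndc1 (0.16), Gpc3 (0.16) and Igf1 (0.17), and nearest to C2 were Igfbp4 (0.13), Adamts5 (0.14) and Prss23 (0.15). C3 lay nearest to Cavin3 (0.18), Axl (0.19) and Tmem119 (0.20), Cfb to Tns1 (0.18), Fscn1 (0.18) and Itga5 (0.19), and C4b to Dmkn (0.17), the lactoferrin gene Ltf (0.20) and Tenm4 (0.21). Cd55 lay nearest to Rnf11 (0.11), Itm2b (0.12) and Slc5a1 (0.12).

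Marker lists of 3 other cell types, summed in TPM, shared their highest and lowest library with 6 of the 8 complement genes in CPM. In TPM 1 of these 6, C2, was instead highest in agonist replicate 1 (4.79, against 3.63 in vehicle replicate 2). The summed level of 10 fibroblast and matrix markers, all above 1 TPM on average, was 717, 1742 and 181 TPM in vehicle replicates 1, 2 and 3 and lay between 1035 and 1476 TPM in the agonist libraries. That of 10 macrophage markers was 303, 665 and 191 TPM with vehicle and 429.97 to 507 with agonist. The 8 adipocyte markers, which include Cfd, summed to 46.6 to 1102 TPM with vehicle. With agonist they summed to 799.5, 474 and 116 TPM in replicates 1, 2 and 3. In agonist replicate 3 that list stood at -1.32 from its mean on the log2 scale, and the 8 complement genes at -0.062 to 0.82. Vehicle replicate 2 was the highest library and vehicle replicate 3 the lowest for each of these 3 lists, as for 6 of the 8 complement genes in CPM. By contrast the 10 luminal epithelial markers summed to 3125 to 3394 TPM with vehicle and 2738 to 3080 with agonist, a 1.24-fold spread over the 6 libraries. Within that list Krt19 and Cldn4 were also highest in vehicle replicate 2 and lowest in vehicle replicate 3, and no other marker was. Krt19 had 193, 520 and 143 TPM in vehicle replicates 1, 2 and 3, and Cldn4 had 40.7, 62.0 and 29.9 TPM. The part of these cell types in the complement values was not tested, and in whole tumour pieces fewer cells of a type and less RNA per cell cannot be told apart. Of 10 hepatocyte markers, 8 were under 1 TPM on average, among them the albumin gene Alb at 0.275 TPM, and their sum was at most 26.9 TPM.

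**Figure D3:**
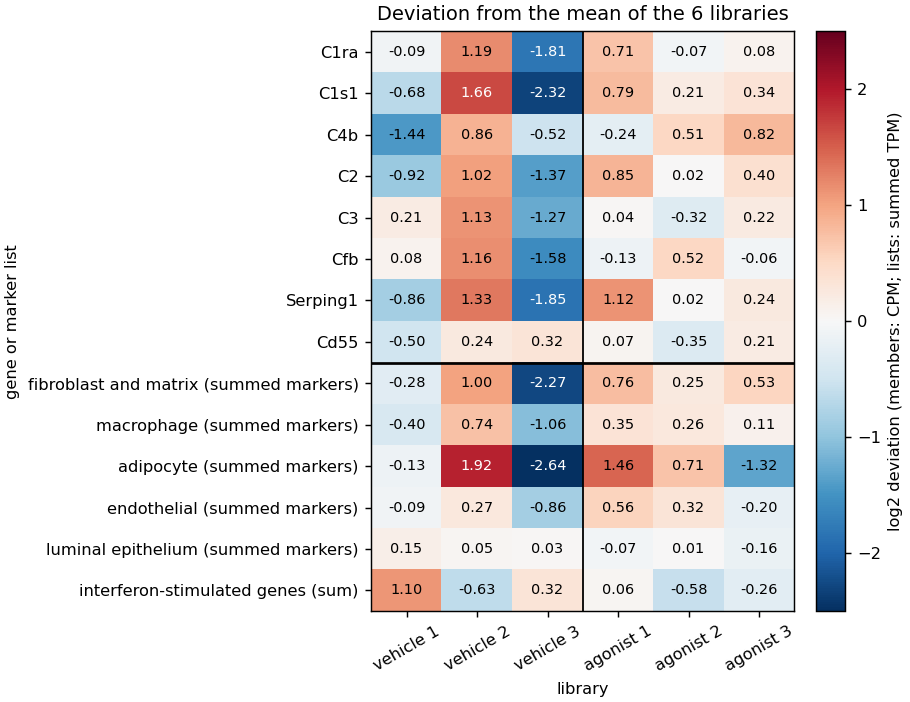
Log2 deviation of each library from the mean of the 6 libraries for the 8 complement genes (CPM, above the line) and for summed marker lists (TPM, below it). C3, Cfb, C1ra, C1s1, C2 and Serping1 share low values in vehicle replicate 3 (-1.27 to -2.32) and high values in vehicle replicate 2 (1.02 to 1.66), as the fibroblast list does (-2.27 in vehicle replicate 3), whereas Cd55 stays between -0.50 and 0.32.

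Interferon induces several complement genes, C4b, C2, Cfb and Serping1 among them, and the 23 interferon-stimulated genes were also summed. Their sum was 1065, 319 and 617 TPM in vehicle replicates 1, 2 and 3 and 331 to 515 TPM with agonist. The highest interferon library, vehicle replicate 1, was the lowest for C4b and the second lowest for C2 and Serping1, while for Cfb it was the third highest of the 6. In CPM the lowest interferon library, vehicle replicate 2, was the highest for all 4 genes. In TPM, the measure of the interferon sum, it was the highest for Cfb and Serping1 only. Agonist replicate 1 was then higher for C2 (4.79 against 3.63 TPM) and agonist replicate 3 for C4b (131.63 against 101.16 TPM). The part of interferon in the complement values was not tested. Of the 23 genes 21 had negative log2 fold changes (median -0.68), and 0 were called. In the acute phase and NF-kB list, 7 of 19 tested genes were positive (median -0.21) and 0 were called. The sum of that list was carried by Lcn2, the lipocalin gene, with a mean of 6445 TPM.

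Elsewhere in the complement system no difference was called, and the spread from lowest to highest library ran from 1.46-fold for Cr1l, a complement receptor 1-like regulator, to 38.5-fold for Cfd. Of the 34 other tested genes in the lists of copies, classical, lectin, alternative, terminal, regulator and receptor genes, 0 passed an adjusted p of 0.05 (edgeR), against 0% of all genes, and 1 had an unadjusted p under 0.05, against 3.09%. Of the lectin pathway 3 of 9 genes were tested. Colec12, a scavenger collectin, averaged 23.0 ± 6.64 CPM in agonist and 17.7 ± 16.2 in vehicle libraries (SD, n = 3), Masp1, a lectin pathway protease, had 2.74 ± 0.339 against 2.56 ± 2.56, and Fcna, ficolin A, had 5.41 ± 1.56 against 5.80 ± 8.58. The mannose-binding lectin gene Mbl1 and the ficolin B gene Fcnb are listed at 0 in every library. Of the 7 terminal genes, which form the membrane attack complex, 4 were tested, all 4 positive with a median of 0.37. Hc, which encodes C5, had 1.29 ± 0.95 against 0.699 ± 0.254 CPM (log2 fold change 0.89 ± 0.60), and 0.088 without agonist replicate 3. C9 (0.41 ± 0.47), C6 (0.32 ± 0.86) and C8g (0.17 ± 0.42) were low too, with group means from 0.867 CPM (C8g, vehicle) to 1.80 CPM (C6, agonist). The sign of C6 turned without vehicle replicate 3 (-0.18) and that of C8g without vehicle replicate 2 (-0.046).

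**Figure D4:**
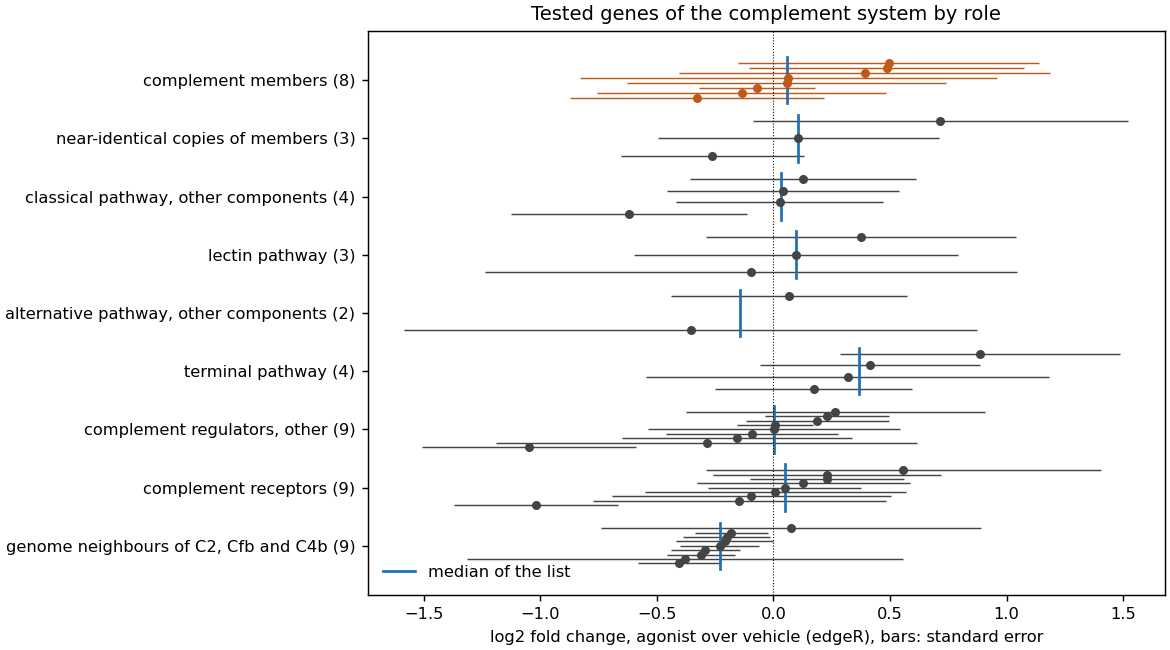
Log2 fold change of agonist over vehicle by edgeR for the tested genes of each list (points, with the standard error as a bar), with the number tested in parentheses and the list median as a blue line. The medians of the complement lists ran from -0.14 to 0.37.

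Of 9 tested regulators outside the 8 genes, 5 were positive and 4 negative (median 0.0038). Clu, which encodes clusterin, an inhibitor of the terminal complex, averaged 298 ± 66.0 CPM in agonist and 254 ± 84.0 in vehicle libraries (SD, n = 3; log2 fold change 0.23 ± 0.27). The C3b cofactor gene Cd46 had 6.33 ± 0.289 against 5.55 ± 1.64 CPM, and Vtn, vitronectin, had 1.11 ± 0.499 against 0.922 ± 0.715. Cd59b, which blocks the membrane attack complex, had 0.704, 0.635 and 0.740 CPM with agonist and 1.37, 0.852 and 2.09 with vehicle. Its groups did not overlap in CPM, as for 4.22% of all genes in that direction. In TPM they overlapped, with 2.9 in vehicle replicate 2 and 3.42 to 4.14 with agonist. Its log2 fold change was -1.05 ± 0.46 (adjusted p = 0.99 by edgeR). Among 9 tested receptors 6 were positive and 3 negative (median 0.048). C5ar2, a receptor for C5a that does not couple to G proteins, had 6.18, 9.52 and 7.997 CPM with agonist and 24.6, 11.7 and 11.7 with vehicle. In CPM all 3 agonist libraries were lower than any vehicle library, and vehicle replicate 1 stood highest. In TPM agonist replicate 2 (3.4) was just above vehicle replicate 2 (3.38). The log2 fold change of C5ar2 was -1.02 ± 0.35 (unadjusted p = 0.0207, adjusted p = 0.99 by edgeR), with -0.57 without vehicle replicate 1. The receptors Cd93 (0.23 ± 0.33), Vsig4, a macrophage receptor for C3b (0.56 ± 0.85), and Itgb2, the integrin chain of complement receptors 3 and 4 (0.23 ± 0.49), had overlapping groups, and Itgb2 was at -0.15 without vehicle replicate 3.

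The neighbours of C2, Cfb and C4b on chromosome 17 differed in their spread. Of 9 tested, 8 had negative log2 fold changes (median -0.23), where 49.3% of all genes were positive. In CPM, 3 of the 9 had agonist libraries all below the vehicle libraries, against 4.22% of all genes. None of the 9 was called. Ehmt2, which encodes the histone methyltransferase G9a, averaged 180 ± 26.9 CPM in agonist and 239 ± 29.6 in vehicle libraries (SD, n = 3; log2 fold change -0.41 ± 0.18). Atf6b (-0.31 ± 0.15) and Dxo (-0.29 ± 0.15) were the others, and Skiv2l was at -0.23 ± 0.17. In TPM the groups of Ehmt2, Atf6b and Dxo overlapped. Vehicle replicate 2 (78.93, 25.55 and 28.16 TPM) then stood below agonist replicate 2 (105.22, 28.49 and 37.11 TPM). The spread from lowest to highest library was 1.75-fold for Ehmt2, 1.48-fold for Atf6b and 1.39-fold for both Dxo and Skiv2l, against 4.95-fold to 6.71-fold for the 3 complement genes. The neighbours Tnxb and Cyp21a1, named here after their values were seen, spread more. Cyp21a1, a steroid hydroxylase gene, spread 10.5-fold at under 1 CPM in every library. Tnxb, the tenascin X gene beside C4b, spread 17.3-fold with 21.8, 131 and 7.56 CPM in vehicle replicates 1, 2 and 3. Near C1ra and C1s1, 2 of 6 tested neighbours were positive (median -0.078).

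The depth and the agonist check bear on all values. The libraries summed to between 36577451 and 42595799 expected counts, and 3 counts correspond to between 0.0704 and 0.082 CPM of the library total. The cholesterol exporters Abca1 (log2 fold change 0.85 ± 0.31) and Abcg1 (0.86 ± 0.23), classical LXR targets, were higher in the agonist group with no overlap, as were 3.02% of all genes, narrowly for Abca1, where the lowest agonist library had 100.2 CPM and the highest vehicle library 99.9. Their adjusted p was 0.99 by edgeR. The other 8 of the 10 genes in the LXR list had overlapping groups, 5 positive and 3 negative, and 0 of 10 were called. The negative ones were Srebf1 (-0.16) and the genes of the receptors themselves, Nr1h3 (-0.11) and Nr1h2 (-0.26). Epithelial, fibroblast and macrophage markers were present in every library, led by Krt18 (794 TPM), Col3a1 (353 TPM) and Lyz2 (225 TPM), while the 6 B cell markers were all under 1 TPM on average.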

How the data were processed

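RNA of 6 mammary tumours (3 agonist, 3 vehicle) was sequenced. Per the submitters' processing notes, the tools included STAR 2.7.9a for build GRCm38 and RSEM 1.3.1, with cutadapt 3.5 and FastQC 0.11.9 and, in R 4.1, DESeq2 1.36.0. The sources used here give neither annotation release nor strand setting. Per the file headers, the authors deposited RSEM expected counts (estimated read counts, not all whole) and TPM. The deposited lengths, in bases and of other kind than a level, were used only to describe isoform averaging.

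Expected counts were rounded and tested with edgeR 4.0.16 in R 4.3.3: TMM, filterByExpr (minimum count 10, minimum total 15), robust quasi-likelihood F test of group. P-values were Benjamini-Hochberg adjusted over 17396 genes and called under 0.05. CPM use the TMM-adjusted total, SE is the log2 fold change over the square root of F, and profiles use a prior count of 2. Positions are GENCODE M21, GRCm38.

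The 8 genes and all lists were chosen with earlier results of these data known. Named genes are the 8, the 4 of each complement list and of the C2 neighbours with the smallest unadjusted p, the 3 nearest profiles per gene, Abca1, Abcg1 and leading cell type markers. DESeq2 1.42.0, limma 3.58.1 (voom with quality weights, and trend on log2(TPM + 1) or log2(TPM + 0.1)), other scaling and filters, a replicate block, summed copies and left-out libraries were alternatives. The tests were checked on simulated data. The floor of 3 counts covers counting error only, while the edgeR intervals cover the spread between libraries. RefSeq promoters were found for 4 of the 8 genes.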

Additional observations from a re-analysis of the deposited data

How the results depend on the processing

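With 18 alternatives, the log2 fold changes of 38 named genes gave 677 values, of which 612 kept their direction and 65 turned; none passed an adjusted p of 0.05. The number of complement genes called at that threshold was 0 of 8 in all 18. Those with positive values numbered 8 by limma-voom and by limma-trend with either pseudocount, and 2 to 8 with single libraries left out. Those at an unadjusted p under 0.05 numbered 0 to 4 with single libraries left out. Without vehicle replicate 2 they were C2 (1.61), C4b (1.34), C1s1 (1.75) and Serping1 (1.81), with adjusted p of 0.281 to 0.308 by edgeR. Of all genes 13.6% passed the unadjusted threshold there in either direction, and 1188 of 17963 were higher. Without vehicle libraries 2 and 3 together, an alternative chosen after seeing the data that leaves 1 vehicle library, assumed to vary like the agonist libraries, the same 4 genes passed (14.1% of all genes).

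Over all genes, DESeq2 called 8 at an adjusted p of 0.05, and 2 were called without vehicle libraries 2 and 3. Genes higher at an unadjusted p under 0.05 numbered 125, against 225 by DESeq2, 272 with no filter, 402 by limma-voom, 266 and 257 by limma-trend with pseudocounts of 1 and 0.1, 1112 without vehicle libraries 2 and 3, and 92 to 1188 with single libraries left out. Genes lower numbered 413, against 809 by limma-voom, 128 and 138 by limma-trend with pseudocounts of 1 and 0.1, 1551 without vehicle libraries 2 and 3, and 223 to 1254 with single libraries left out. With upper-quartile scaling 182 were higher and 331 lower.

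Of values that turned, limma-voom put C3 at 0.18, Cfb at 0.34, Cd55 at 0.088, Fcna at 1.57 and Cfd at 0.39. Limma-trend on log2(TPM + 1) put C3 at 0.00033, Cfb at 0.43, Cd55 at 0.0042, C4a at 0.0497, Fcna at 0.80 and Cfd at 0.53, and with a pseudocount of 0.1 they were at 0.012, 0.46, 0.0045, 0.10, 1.22 and 0.55. Without vehicle libraries 2 and 3, Cfb was at 0.046, Cd55 at 0.49, Fcna at 2.55, Cfd at 0.85 and C8g at -0.17. The cause was not tested.

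The replicate block put Cfb at 0.20, Fcna at 1.34 and Cfd at 0.62, gave 0 calls, and left 145 genes higher and 343 lower at an unadjusted p under 0.05. Same-numbered libraries deviated from their group means with correlations over genes of 0.17, 0.038 and 0.063, so the numbers were not taken to pair them, and agonist replicate 2 correlated best with vehicle replicate 3 (0.055).

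With single libraries left out, the log2 fold change ran for C3 from -0.74 to 0.33, for Cfb from -0.57 to 0.65, for C1ra from -0.40 to 0.98, for C1s1 from -0.43 to 1.75, for Serping1 from -0.054 to 1.81, for Cd55 from -0.29 to 0.084 and for C1rb from -0.13 to 1.55. It ran for C1s2 from -0.28 to 0.84, for C1qb from -0.25 to 0.75, for C1qa from -0.34 to 0.73, for C1qc from -0.33 to 0.57, for Colec12 from -0.042 to 1.42, for Masp1 from -0.34 to 1.303 and for Fcna from -0.61 to 2.68. It ran for Cfd from -1.03 to 1.65, for Cfp from -0.26 to 0.87, for C8g from -0.046 to 0.38, for C6 from -0.18 to 2.004, for Vtn from -0.16 to 1.08 and for Itgb2 from -0.15 to 0.90.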
